A study of Homo sapiens with 23 samples.

Results

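The genes described here are 58 of the 60683 genes in the LNCaP count table. Their level was higher when ONECUT2 (OC2) was overexpressed and lower when it was knocked down. Genes that OC2 raised to a ratio of 2 or more in a second prostate cancer line, LAPC4, were left out. Genes with a smaller rise there were kept. The 58 were chosen by measured values. Levels are CPM, a gene's count scaled to the total of its library, and ratios are of group means of CPM plus a pseudocount of 0.5. A gene had to average 5 CPM or more in OC2-overexpressing LNCaP cells, stand at a ratio of 2 or more to the control cells and also to the hairpin control cells (shCon), and stand at a ratio of 1.5 or more in shCon cells over OC2 hairpin cells (shOC2). Genes at a ratio of 2 or more in OC2-overexpressing LAPC4 cells over vector cells were left out. Of the 11390 genes at 5 CPM or more, 8.68% met the ratio to control, 6.51% the ratio to shCon and 11.8% the knockdown ratio. In sequence, 989 genes met the first ratio, 529 also the second and 73 also the third, and 15 of those were left out as raised in LAPC4. ONECUT2 itself is among the 15.

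OC2 is a transcription factor with a CUT domain and a homeodomain, both of which bind DNA. In prostate cancer it is known for a high level in aggressive and castration-resistant disease, for opposing the androgen receptor programme and for a link to neuroendocrine features. Enzalutamide is an antagonist of the androgen receptor, the nuclear receptor that drives luminal prostate cells. A gene that tracks a factor's level in both directions may be its target or lie further downstream, and RNA levels alone do not separate these.

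LNCaP and LAPC4 are human prostate adenocarcinoma lines that depend on androgen. LNCaP cells that overexpressed OC2 (2 libraries) were set beside control cells (2), and cells with the OC2 hairpin shOC2 (2) beside cells with the control hairpin shCon (2). LNCaP was grown with 10% FBS. LAPC4 cells that overexpressed OC2 (3) were set beside vector cells (3), all with 10% FBS and 1 nM R1881, a synthetic androgen. In the drug experiment LNCaP cells received enzalutamide (10 µM) together with an inhibitor of OC2 (10 µM) in the combination arm (3 libraries), enzalutamide alone (10 µM, 3) or vehicle (3) for 7 days. The inhibitor was given only together with enzalutamide. The labels name neither the construct, its promoter, the number of clones nor the hairpin's target site, and all shOC2 libraries carry the same hairpin name. Nor do they say that replicates came from separate cultures, so the p-values below measure only the spread between these libraries.

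Library totals ran from 20964025 to 30465978 counts. All 8 luminal prostate markers were at 1 CPM or more in every library, and of 13 stromal, endothelial and blood cell markers 3 to 5 were. The summed luminal markers stood at 3584 to 3688 CPM in OC2-overexpressing LNCaP cells, against 5862 to 5900 CPM in control, and at 5975 to 6008 CPM in shOC2 cells, against 5352 to 5434 CPM in shCon. Their part in the values below was not tested. In bulk RNA, fewer cells of a type and less RNA per cell cannot be told apart. In the drug table the enzalutamide columns are whole counts while the combination and vehicle columns are estimated counts that need not be whole. Of its gene symbols, 12 had at least 100 counts in each enzalutamide library and 0 in all others, and 89 had the reverse. The enzalutamide treatment and this counting difference cannot be told apart. Also, 1 of the 3 enzalutamide libraries stood apart from the other 2 (Pearson r across genes 0.983 and 0.986, against 0.997 between those 2).

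ONECUT2 stood at 313 and 287.6 CPM in OC2-overexpressing LNCaP cells, against 23.4 and 29.6 CPM in control. It stood at 12.6 and 12.6 CPM in shOC2 cells, against 21.9 and 22.6 CPM in shCon. In LAPC4 it stood at 963, 814 and 913 CPM with OC2, against 13.6, 17.2 and 15.6 CPM with vector. Overexpression in both lines and the partial knockdown thus followed the labels in every library.

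The ONECUT family binds short sites with the core ATTGAT, read as ATCAAT on the opposite strand. This core and its variant ATCGAT, which reads alike on both strands, were looked for in RefSeq promoter windows (GRCh38.p14, 250 bases before to 50 after the start site). A window was found for 41 of the 58 genes. ATTGAT occurred on either strand in 2 of the 41 windows (4.88%), against 1748 of all 27305 windows (6.4%). ATCGAT occurred in 0 of the 41, against 212 of all windows (0.776%). A match is a description of the letters and not a bound site, and its absence from this short window says nothing about binding elsewhere. The windows with a match are those of UGT2B15, an androgen-inactivating enzyme, and SP8, a zinc finger transcription factor. They are shown because they are the members whose promoter letters hold the core, in capitals. The UGT2B15 window (chr4:68670603-68670902, minus strand) holds it 138 and 46 bases before the start site, and the SP8 window (chr7:20786837-20787136, minus strand) 41 bases after it.
UGT2B15: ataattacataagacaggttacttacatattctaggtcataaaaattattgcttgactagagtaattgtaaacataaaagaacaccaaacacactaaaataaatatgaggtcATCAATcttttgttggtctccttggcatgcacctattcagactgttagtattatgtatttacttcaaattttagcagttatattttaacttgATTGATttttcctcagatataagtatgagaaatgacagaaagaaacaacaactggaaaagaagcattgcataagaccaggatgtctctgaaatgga
SP8: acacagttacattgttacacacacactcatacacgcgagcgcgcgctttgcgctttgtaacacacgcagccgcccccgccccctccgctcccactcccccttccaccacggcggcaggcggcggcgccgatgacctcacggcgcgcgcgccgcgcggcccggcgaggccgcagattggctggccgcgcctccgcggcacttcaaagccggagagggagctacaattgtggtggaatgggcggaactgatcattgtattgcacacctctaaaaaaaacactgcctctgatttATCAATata

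An approved symbol is held by 54 of the 58 genes, and 54 are protein-coding. By known role they comprise 13 transcription factors and chromatin proteins (IRX3, IRX5, TFAP2A, SP8, HOXC10, EMX1, MEIS1, ETV4, FOXN4, ZNF117, IRF2BP1, HMGN2 and ANP32E), 7 secreted factors and matrix proteins (TGFB3, GDF1, NRTN, RELN, NPNT, FRAS1 and PLA1A), 7 proteins of neuronal surfaces, synapses and ion channels (NPTXR, SLITRK5, SLITRK6, NRXN2, SNAP91, CNIH2 and HCN3), 8 metabolic enzymes and transporters (UGT2B15, UGT8, ALDH1L2, MAN1A1, GALNT12, ASPH, SLC47A1 and GUCY1A2) and 10 signalling, adaptor and surface proteins (TRIB3, SFN, GNG4, CDK18, BANK1, ARHGEF6, AMOTL1, ABLIM3, TPBG and SGCE). The other 9 named genes, of which VCY is Y-linked and has a near-identical copy, are PARM1, IER5L, PGBD5, UTP14C, VCY, C1orf56, PRRT4, TMEM178B and SHISA8. These roles were assigned after the members were known. The genes lie on 21 chromosomes. Only 3 pairs lie within 1 Mb of each other, namely HMGN2 and SFN (chromosome 1, 387166 bases apart), ANP32E and C1orf56 (chromosome 1, 811584 bases) and IRX3 and IRX5 (chromosome 16, 644099 bases), a pair from a known Iroquois gene cluster.

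Across the 58 genes the ratio of OC2-overexpressing to control cells ran from 2.04 to 84.0 with a median of 7.75, and to shCon from 2.02 to 56.6 with a median of 4.08. The ratio of shCon to shOC2 ran from 1.51 to 14.3 with a median of 2.34. Over the 11390 genes the medians were 1.03, 0.922 and 1.03. Since these ratios chose the genes, they are given as a description with no test. A ratio of 10 or more was reached by 26 genes against control and 9 against shCon, and by 6 against both. In control cells 25 of the 58 stood under 1 CPM, in shOC2 cells 30 and in shCon cells 6. By role, the median ratio to control was highest in the neuronal group at 13.6 and lowest in the transcription factor and chromatin group at 4.44. Against shCon the order differed. The median there was highest in the enzymes and transporters at 7.5, with the neuronal group at 4.78, and lowest in the other named genes at 3.34. Every OC2-overexpressing library stood above every control library for all 58 genes, against 44.2% of the 11390. Every shOC2 library stood below every shCon library for 55, against 45.4%. The rule used both contrasts, so nothing is read from these counts.

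**Figure D1:**
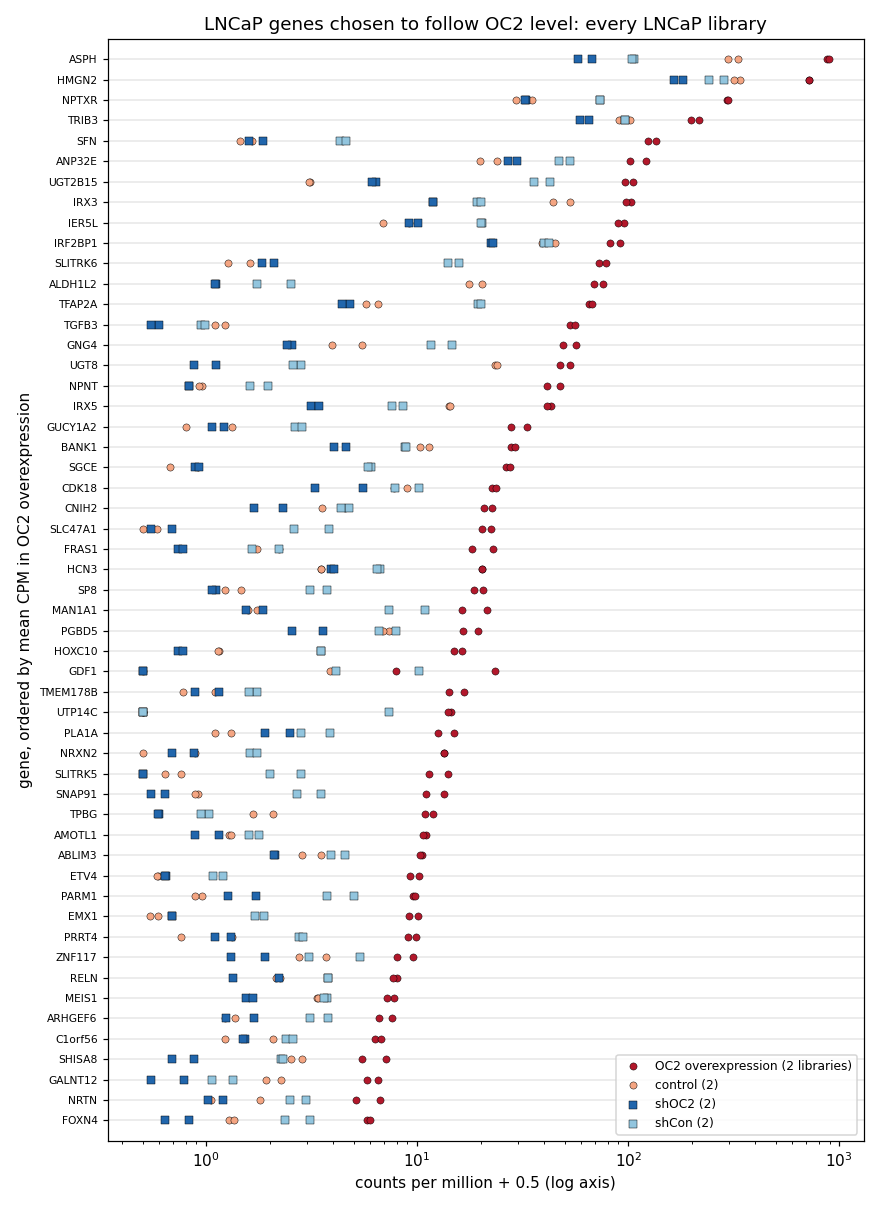
Level of each gene in every LNCaP library, as CPM + 0.5 on a log axis. Rows are the genes with an approved symbol other than VCY, ordered by mean CPM with OC2 overexpression, and each point is 1 library. The overexpressing libraries lie to the right of all others in nearly every row, and the shOC2 libraries mostly to the left of shCon, as the choice of genes fixed.

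Among the transcription and chromatin genes, IRX3 (chr16:54283304-54286763, minus strand, hg38), an Iroquois homeodomain factor, stood at 103 and 96.8 CPM with OC2 overexpression, against 52.4 and 43.5 CPM in control. It stood at 11.4 and 11.4 CPM in shOC2 cells, against 18.8 and 19.5 CPM in shCon. Its neighbour IRX5 (chr16:54930862-54934485, plus strand), named for that position, stood at 42.6 and 40.6 CPM with OC2, against 13.7 and 13.8 CPM in control, and at 2.63 and 2.94 CPM in shOC2 cells, against 7.14 and 8.11 CPM in shCon. Both Iroquois genes thus stood higher in control than in shCon, so the OC2 ratio was smaller against control (IRX3 2.07, IRX5 2.96) than against shCon (5.1 and 5.18). HMGN2, a nucleosome-binding protein with many processed copies in the genome, which makes its count uncertain, stood at 722 and 719.6 CPM with OC2, against 337 and 316 CPM in control. HMGN2 had a knockdown ratio of 1.52, close to the limit. ANP32E, a chaperone that removes the histone variant H2A.Z, stood at 102 and 120.5 CPM with OC2, against 19.5 and 23.3 CPM in control, and at 26.5 and 29.1 CPM in shOC2 cells, against 52.5 and 46.5 CPM in shCon. IRF2BP1, a corepressor partner of IRF2, had ratios near the limit on both sides, 2.07 to control and 2.11 to shCon. ETV4, an ETS factor, stood at 8.76 and 9.72 CPM with OC2 and at under 1 CPM in every control, shOC2 and shCon library. HOXC10, a homeobox gene, stood at 15.9 and 14.5 CPM with OC2, against 0.646 and 0.644 CPM in control, and at 0.238 and 0.2804 CPM in shOC2 cells, against 3.01 and 3.01 CPM in shCon.

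Of the secreted and matrix proteins, TGFB3 (chr14:75958099-75982991, minus strand), a TGF-beta family ligand, stood at 52.7 and 55.5 CPM with OC2, against 0.5995 and 0.731 CPM in control. In shOC2 cells it stood at 0.0954 and 0.0467 CPM, against 0.443 and 0.486 CPM in shCon. TGFB3 was thus under 1 CPM in every library without overexpression, and its knockdown ratio of 1.69 rests on few counts and the pseudocount. NPNT (chr4:105894775-106004027, plus strand), nephronectin, a matrix ligand of an integrin, stood at 40.8 and 46.9 CPM with OC2, against 0.461 and 0.4297 CPM in control. NPNT stood at 0.334 and 0.327 CPM in shOC2 cells, against 1.11 and 1.46 CPM in shCon. FRAS1, a basement membrane protein, stood at 17.7 and 22.5 CPM with OC2, against 1.25 and 1.72 CPM in control, and at 0.238 and 0.2804 CPM in shOC2 cells, against 1.73 and 1.15 CPM in shCon. GDF1, a TGF-beta family ligand, shares exons with CERS1 on the same strand and its estimates swung between libraries. It stood at 22.9 and 7.42 CPM with OC2, against 3.37 and 0 CPM in control, and at 0 and 0 CPM in shOC2 cells, against 3.64 and 9.71 CPM in shCon. Its OC2 libraries therefore overlap those of shCon, and its knockdown ratio, the largest of the 58 at 14.3, rests on those estimates.

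Of the neuronal proteins, NPTXR (chr22:38818452-38843982, minus strand), the neuronal pentraxin receptor, stood at 292 and 296 CPM with OC2, against 34.5 and 29.1 CPM in control. In shOC2 cells it stood at 32.2 and 32.01 CPM, against 73.1 and 72.9 CPM in shCon. SLITRK6 (chr13:85792787-85806683, minus strand), a transmembrane protein of neurites and synapses, stood at 72.6 and 77.8 CPM with OC2, against 1.11 and 0.773 CPM in control, and at 1.34 and 1.59 CPM in shOC2 cells, against 15.3 and 13.6 CPM in shCon. For both genes the control and shOC2 libraries lay at similar levels, under the shCon libraries. SNAP91, a clathrin assembly protein of nerve terminals, stood at 10.5 and 12.9 CPM with OC2, against 0.415 and 0.387 CPM in control, and at 0.0477 and 0.1402 CPM in shOC2 cells, against 3.01 and 2.21 CPM in shCon. NRXN2, a presynaptic adhesion protein, stood at 12.9 and 12.9 CPM with OC2, against 0 and 0.387 CPM in control.

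Of the enzymes, UGT2B15 (chr4:68646630-68670628, minus strand) glucuronidates and so inactivates androgens, and is repressed by androgen in LNCaP cells. It stood at 95.8 and 105 CPM with OC2, against 2.61 and 2.59 CPM in control, and at 5.87 and 5.58 CPM in shOC2 cells, against 42.4 and 35.3 CPM in shCon. The shCon level of UGT2B15 was thus well above that of control cells. Its coding sequence is close to that of UGT2B17, so reads could be split between them. ASPH (chr8:61500556-61714640, minus strand), aspartate beta-hydroxylase, stood at 872 and 896 CPM with OC2, against 297 and 331 CPM in control, and at 57.1 and 67.02 CPM in shOC2 cells, against 106 and 104 CPM in shCon. ALDH1L2, a mitochondrial enzyme of folate metabolism, stood at 68.3 and 75.4 CPM with OC2, against 17.1 and 19.8 CPM in control, and at 0.6201 and 0.608 CPM in shOC2 cells, against 1.24 and 2.03 CPM in shCon. UGT8, the enzyme that makes galactosylceramide, stood at 46.9 and 52.7 CPM with OC2, against 22.9 and 23.3 CPM in control, and at 0.6201 and 0.374 CPM in shOC2 cells, against 2.303 and 2.08 CPM in shCon. For ASPH, ALDH1L2 and UGT8 the order was the opposite of that for UGT2B15, with control above shCon. MAN1A1, a Golgi mannosidase, stood at 15.7 and 20.8 CPM with OC2, against 1.25 and 1.07 CPM in control, and at 1.05 and 1.35 CPM in shOC2 cells, against 10.4 and 6.85 CPM in shCon. GUCY1A2, a subunit of soluble guanylate cyclase, had a ratio of 28.6 to control and 11.2 to shCon.

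Of the signalling, adaptor and surface proteins, SFN (chr1:26863138-26864457, plus strand), the 14-3-3 sigma protein of epithelial cells, had the largest ratio to control of the 58. It stood at 135 and 124 CPM with OC2, against 1.15 and 0.945 CPM in control, and at 1.097 and 1.35 CPM in shOC2 cells, against 3.81 and 4.11 CPM in shCon. TRIB3 (chr20:362835-397559, plus strand), a pseudokinase induced by the stress factor ATF4, stood at 215 and 198 CPM with OC2, against 102 and 90.3 CPM in control, and at 64.9 and 58.4 CPM in shOC2 cells, against 96.1 and 96.3 CPM in shCon. TRIB3 was thus alike in control and shCon. GNG4, a G protein gamma subunit, stood at 48.5 and 56.3 CPM with OC2, against 4.98 and 3.44 CPM in control, and at 2.05 and 1.92 CPM in shOC2 cells, against 14.1 and 11.1 CPM in shCon. SGCE, epsilon-sarcoglycan, stood at 25.9 and 27.01 CPM with OC2, against 0.415 and 0.172 CPM in control, and at 0.382 and 0.421 CPM in shOC2 cells, against 5.54 and 5.35 CPM in shCon. Exons of SGCE are overlapped on the other strand by PEG10, its imprinted neighbour, which met the same LNCaP ratios and was left out as raised in LAPC4. Among the remaining genes, IER5L stood at 94.8 and 89.5 CPM with OC2, against 8.69 and 6.42 CPM in control, and UTP14C, which shares exons with ALG11, at 13.9 and 13.6 CPM, against 0 and 0 CPM. UTP14C had 0 and 0 CPM in shOC2 cells, against 0 and 6.83 CPM in shCon, so its knockdown ratio rests on 1 library. Per kb of exon, which allows genes to be compared, HMGN2 (287), SFN (98.2), TRIB3 (60.2) and NPTXR (50.9) had the highest CPM per kb of the 58 with OC2 overexpression, and FRAS1 had 1.06. Of the 58 genes, 4 share exons with another gene on the same strand (GDF1, UTP14C, ZNF117 and HOXC10) and 21 are overlapped by exons on the other strand. Whether counting used strand is not stated in the notes used, so their counts could include reads from the partner.

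The control and shCon levels of many of these genes differed. The control mean lay below the shCon mean for 44 of the 58 genes, against 63% of the 11390 genes, and below the shOC2 mean for 20, against 57.4%. The rule sets OC2 against control and shCon against shOC2, which bears on both counts, so nothing is read from them. Every control library lay below every shCon library for 36 genes, against 53.9% of the 11390, and above for 11, against 27.8%. The rule bears on these as well. The combination, vehicle, shCon and shOC2 libraries share a running number series in their descriptions that the control and OC2-overexpressing libraries lack, so the references of the OC2 ratios come from different series of libraries.

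At the limits of the rule, FOXN4 (5.37 CPM) and NRTN (5.39 CPM) were just inside the level limit, and ADRA1A (4.68 CPM) and MTSS1 (4.46 CPM) just outside. IRF2BP1 and IRX3 (both 2.07) were just inside the ratio to control, and CAMK2N2 (1.99) and ENTREP2 (1.83) just outside. MEIS1 (2.02) and MAN1A1 (2.05) were just inside the ratio to shCon, and DPYSL2 (1.998) and BBC3 (1.97) just outside. PLA1A (1.51) and HMGN2 (1.52) were just inside the knockdown ratio, and ICAM5 (1.498) and LINC00641 (1.49) just outside. HOXC10 and SFN (both 1.77) were just inside the LAPC4 limit, and ADGRG6 (2.05) and SYT17 (2.14) just outside.

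In LAPC4, 57 of the 58 genes had a row, and 14 were under 1 CPM in both groups. The ratio of OC2-overexpressing to vector cells ran from 0.305 to 1.77 with a median of 0.918, against a median of 1.02 over the 11339 genes. The upper end was set by the choice of genes. The rule set no lower limit, but leaving out high ratios also raises the share of low ones. A ratio of 0.5 or less was found for 8 of the 57, against 3.16% of the 11339. The named ones are BANK1, HCN3, SP8, SLITRK5, SNAP91, ZNF117 and FOXN4, singled out after their values were seen. SP8 stood at 3.41, 3.84 and 3.54 CPM with OC2 in LAPC4, against 10.8, 11.4 and 11.6 CPM with vector, while in LNCaP it stood at 18.1 and 20.02 CPM with OC2, against 0.968 and 0.731 CPM in control. SNAP91 stood at 0.755, 0.7201 and 0.568 CPM with OC2 in LAPC4, against 2.41, 2.52 and 3.64 CPM with vector. SLITRK5, a relative of SLITRK6, stood at 1.38, 1.41 and 1.14 CPM with OC2 in LAPC4, against 4.97, 4.08 and 4.17 CPM with vector. In all 3 genes the LAPC4 groups did not overlap, with OC2 lower, whereas in LNCaP every OC2 library was higher than control. The difference between lines was not tested, since both contrasts chose the genes. Across the 57 genes, every OC2 library lay above every vector library for 14, against 36.8% of the 11339, and below for 22, against 30.1%, and the groups overlapped for 21. The rule took out genes with a high LAPC4 ratio, which lowers the share above and raises the share below, so no excess in either direction is read from these counts. On the upper side, SFN stood at 100.3, 90.8 and 98.8 CPM with OC2 in LAPC4, against 51.4, 56.4 and 55.8 CPM with vector. NPNT, which OC2 cells of LNCaP held at a ratio of 46.9, stood at 144, 161 and 149 CPM with OC2 in LAPC4, against 294, 260.3 and 203 CPM with vector. UGT2B15 stood at 5.25, 6.04 and 4.44 CPM with OC2 in LAPC4, against 6.65, 5.12 and 5.99 CPM with vector, and these overlapped.

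**Figure D2:**
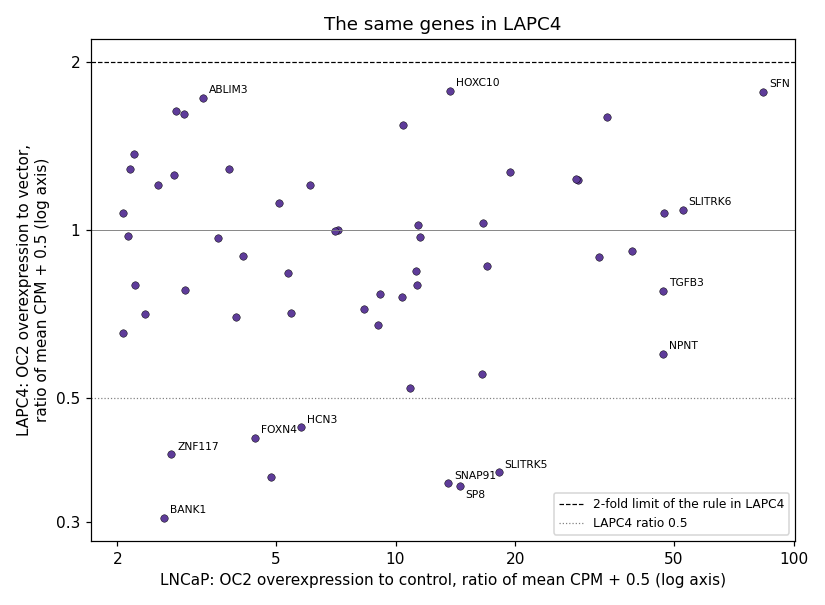
Ratio of OC2-overexpressing to vector cells in LAPC4 against the ratio to control in LNCaP, both on log axes, with 1 point a gene (VCY and the gene with no LAPC4 row left out). The dashed line is the ratio of 2 from which genes were left out, and the points spread from 0.305 to 1.77 below it. Whether the LAPC4 and LNCaP ratios are related was not tested.

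The drug arms had no part in choosing the genes. Of the 58, 55 had a row in the drug table and 53 passed the filter on low counts there. SLC47A1 and EMX1 did not pass. VCY counts among the members called below, lower with enzalutamide than with vehicle and higher in combination than in both other arms. Its combination and vehicle libraries overlapped, and that call was lost in several fits that left out a single library. Levels of Y-linked genes are not given, so VCY has no values or points here. Each arm was compared over all 17439 tested genes with edgeR's quasi-likelihood test and Benjamini-Hochberg adjustment at 0.05, and all adjusted p-values below come from it. Drug levels are CPM on TMM-scaled totals. ONECUT2 RNA stood at 13.7, 15.99 and 13.3 CPM in combination, against 16.97, 16.7 and 14.1 CPM in vehicle (log2 fold change -0.15, SE 0.15, adjusted p = 0.4395), a difference within the spread. With enzalutamide it stood at 20.9, 30.4 and 27.03 CPM, higher than vehicle (log2 fold change 0.71, SE 0.15, adjusted p = 0.00139). The inhibitor's effect on OC2 protein cannot be read from this RNA. KLK3, an androgen-activated gene that checks the androgen arm, stood at 72.7, 57.5 and 74.02 CPM in combination and 137, 403 and 348 CPM with enzalutamide, against 1535, 1830.0 and 1621 CPM in vehicle, and fell in both comparisons. FKBP5 fell to 27.1 ± 1.54 CPM in combination and 42.8 ± 8.78 CPM with enzalutamide, against 224 ± 10.4 CPM in vehicle (SD, n = 3 each). TMPRSS2 stood at 169.9 ± 1.58 CPM in combination and 444 ± 84.95 CPM with enzalutamide, against 556 ± 59.5 CPM in vehicle.

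In combination against vehicle, 15 of the 53 genes were higher and 15 lower, against 23.2% of all tested genes higher and 23.6% lower. The shares, 28.3% each way, lie near that background, and the median log2 fold change was 0.01, as over all genes. No direction of the genes that follow OC2 as a group is read from these counts. By role, 4 of the 7 neuronal genes were higher and 1 lower. Of the 7 tested enzymes and transporters, 1 was higher and 3 lower. Of 12 tested transcription factors and chromatin genes, 3 were higher and 4 lower. Of the 301 tested genes that OC2 raised without the knockdown ratio reaching 1.5, 82 were higher and 72 lower.

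**Figure D3:**
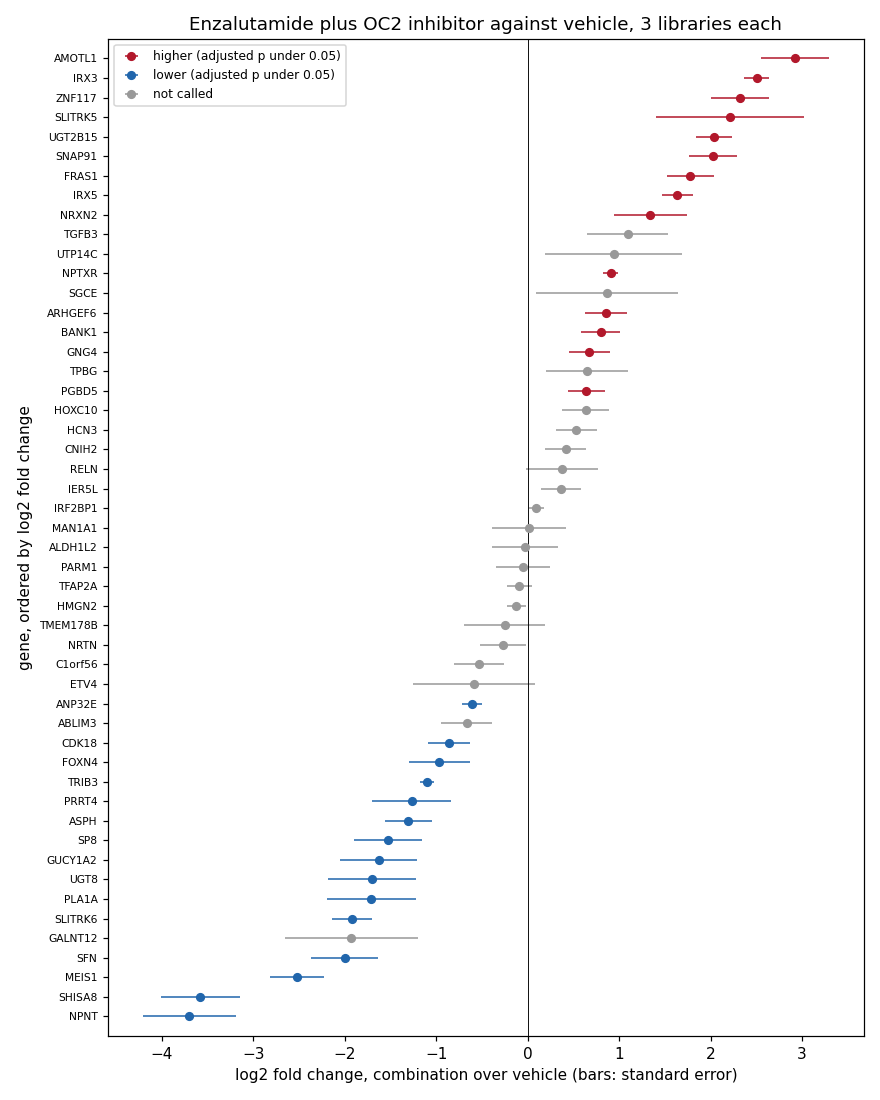
Log2 fold change of combination over vehicle for each tested gene with an approved symbol (VCY and GDF1 left out), with its standard error, 3 libraries in each arm. Colours mark genes called higher or lower at an adjusted p under 0.05, and the genes spread on both sides of 0 from NPNT at -3.70 to AMOTL1 at 2.92.

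Of the genes that rose in combination, UGT2B15 stood at 596, 567 and 590.4 CPM, against 139, 157 and 129.9 CPM in vehicle, 4.12-fold higher (log2 fold change 2.04, SE 0.20, adjusted p = 3.30e-05). It is the member whose vehicle level already exceeded that of OC2-overexpressing cells, although the tables were scaled separately. IRX3 stood at 91.3, 131 and 96.4 CPM in combination, against 18.04, 18.3 and 19.9 CPM in vehicle (log2 fold change 2.504, SE 0.14, adjusted p = 1.23e-06). IRX5 moved with it, at 29.1 ± 7.42 CPM in combination, against 9.35 ± 0.119 CPM in vehicle (SD, n = 3 each, log2 fold change 1.64, SE 0.17, adjusted p = 6.25e-05). AMOTL1, an angiomotin family member that binds the YAP coactivator, stood at 29.3, 27.1 and 26.3 CPM in combination, against 3.36, 4.78 and 2.75 CPM in vehicle (log2 fold change 2.92, SE 0.37, adjusted p = 1.87e-04). ZNF117, a zinc finger gene that shares exons with ERV3-1, stood at 15.98 ± 1.17 CPM in combination, against 3.19 ± 0.1901 CPM in vehicle (SD, n = 3 each, log2 fold change 2.32, SE 0.32, adjusted p = 2.80e-04). SNAP91 stood at 4.26, 4.55 and 3.91 CPM in combination, against 0.926, 0.877 and 1.304 CPM in vehicle (log2 fold change 2.03, SE 0.26, adjusted p = 1.90e-04), and FRAS1 at 10.6, 8.04 and 8.27 CPM, against 2.88, 2.53 and 2.42 CPM (log2 fold change 1.78, SE 0.26, adjusted p = 3.69e-04). In none of these 7 genes did the combination and vehicle libraries overlap. All but IRX5 were named for a large rise, so nothing is read from this. NPTXR rose by less, with a log2 fold change of 0.91 and adjusted p = 2.51e-05.

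Of the genes that fell in combination, NPNT stood at 0.136, 0.138 and 0.0908 CPM, against 1.36, 1.56 and 1.98 CPM in vehicle (log2 fold change -3.697, SE 0.51, adjusted p = 2.99e-04). MEIS1, a homeodomain partner of HOX proteins, stood at 0.952, 0.873 and 0.908 CPM in combination, against 4.34, 6.24 and 5.22 CPM in vehicle (log2 fold change -2.52, SE 0.29, adjusted p = 1.08e-04). SLITRK6 stood at 2.72, 4.18 and 2.54 CPM in combination, against 14.1, 11.4 and 10.3 CPM in vehicle (log2 fold change -1.92, SE 0.22, adjusted p = 1.05e-04). SFN stood at 0.544, 1.102 and 0.545 CPM in combination, against 2.49, 3.995 and 2.32 CPM in vehicle (log2 fold change -2.0, SE 0.37, adjusted p = 0.00152). In all 4 genes, named for a large fall, every combination library was below every vehicle library, and nothing is read from this. NPNT and SFN lay near or under 1 CPM in combination. PLA1A, a phospholipase, had a log2 fold change of -1.71 (adjusted p = 0.0155) and UGT8 one of -1.700 (adjusted p = 0.0149). The PLA1A call was lost without combination replicate 2 (adjusted p = 0.0581) or vehicle replicate 2 (0.0566), and the UGT8 call without combination replicate 1 (0.0505) or 2 (0.0517). ASPH stood at 53.9, 65.9 and 56.9 CPM in combination, against 146, 154 and 137 CPM in vehicle (log2 fold change -1.304, SE 0.26, adjusted p = 0.00242). TRIB3 stood at 73.5, 64.2 and 72.5 CPM in combination, against 153, 143 and 156 CPM in vehicle (log2 fold change -1.104, SE 0.08, adjusted p = 5.05e-06). ANP32E and CDK18, a cyclin-dependent kinase family member, fell as well, with log2 fold changes of -0.61 (adjusted p = 0.00125) and -0.86 (adjusted p = 0.0101). TGFB3, HMGN2, IRF2BP1 and IER5L were not called, with log2 fold changes of 1.09, -0.12, 0.09 and 0.36.

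**Figure D4:**
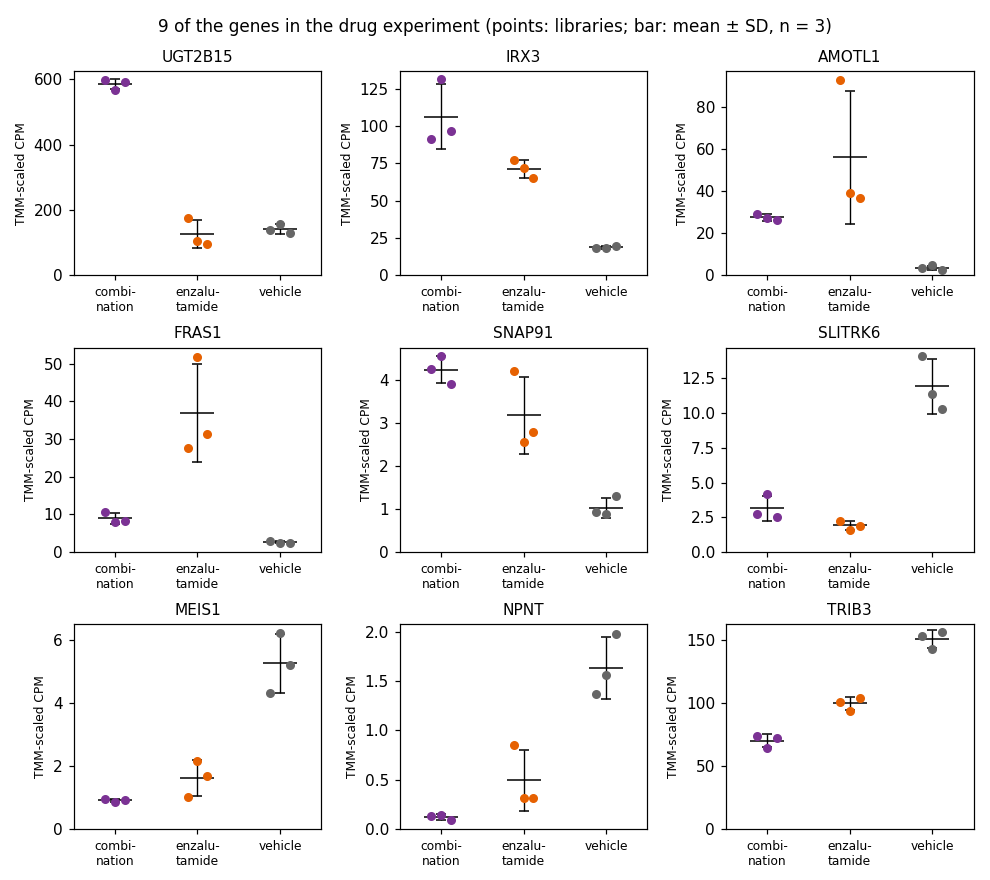
TMM-scaled CPM of 9 of the genes in combination, enzalutamide and vehicle, with 1 point a library and the mean ± SD as a bar (n = 3). UGT2B15 is high in combination alone, IRX3, AMOTL1, FRAS1 and SNAP91 are higher in both drug arms than in vehicle, and SLITRK6, MEIS1, NPNT and TRIB3 are lower in both.

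In enzalutamide against vehicle, 26 of the 53 genes were higher and 15 lower, against 34.7% of all tested genes higher and 35.6% lower. The shares were 49.1% and 28.3%, with a median log2 fold change of 0.51, against 0.01 over all genes. The 301 genes raised by OC2 without the knockdown ratio leaned the same way, with 44.5% higher and 23.9% lower and a median of 0.48. Without the enzalutamide library that stood apart, 23 of the members were higher and 17 lower. The share of all genes called in that fit is not given, so no lean is read from it. ALDH1L2 stood at 21.2, 40.2 and 43.6 CPM with enzalutamide, against 1.22, 1.12 and 0.8695 CPM in vehicle (log2 fold change 5.03, SE 0.30, adjusted p = 1.99e-07). FRAS1 stood at 27.7, 51.8 and 31.4 CPM with enzalutamide, against 2.88, 2.53 and 2.42 CPM in vehicle (log2 fold change 3.82, SE 0.25, adjusted p = 4.70e-07). AMOTL1 stood at 92.5, 39.03 and 36.6 CPM with enzalutamide, against 3.36, 4.78 and 2.75 CPM in vehicle (log2 fold change 3.95, SE 0.38, adjusted p = 6.66e-06). UGT8 stood at 7.22, 23.7 and 21.2 CPM with enzalutamide, against 2.49, 2.29 and 2.51 CPM in vehicle (log2 fold change 2.84, SE 0.39, adjusted p = 8.94e-05). In these 4 genes, named for a large rise, no library of the arms overlapped, and nothing is read from this. The library that stood apart differed from the other enzalutamide libraries by 1.5 times or more in ALDH1L2, UGT8 and AMOTL1. TGFB3 rose to 1.75 ± 0.3197 CPM with enzalutamide, against 0.211 ± 0.102 CPM in vehicle, and TPBG, the trophoblast glycoprotein of the tumour cell surface, to 1.99 ± 0.192 CPM, against 0.259 ± 0.123 CPM (SD, n = 3 each). Their log2 fold changes were 3.03 (adjusted p = 5.50e-05) and 2.92 (adjusted p = 6.48e-05). IER5L stood at 2.35, 1.495 and 1.63 CPM with enzalutamide, against 23.6, 21.7 and 21.6 CPM in vehicle (log2 fold change -3.61, SE 0.26, adjusted p = 9.24e-07). It was not called in combination against vehicle (log2 fold change 0.36), and its exons are overlapped on the other strand by IER5L-AS1. For IER5L too, the treatment and the counting difference cannot be told apart. SLITRK6 (-2.63, adjusted p = 3.23e-06), NPNT (-1.72, adjusted p = 0.00295) and MEIS1 (-1.703, adjusted p = 2.50e-04) fell on the log2 scale, as in combination. NPNT without the library that stood apart had a log2 fold change of -2.37. GDF1 was listed at 0 in all enzalutamide libraries and at 12.1, 0 and 0 CPM in vehicle, so its call rests on vehicle replicate 1, without which the log2 fold change was 0. A member with no approved symbol also had 0 counts with enzalutamide, against 90 in vehicle and 113 in combination, each summed over libraries. That member was called lower with enzalutamide than with vehicle (log2 fold change -8.19, adjusted p = 5.14e-06) and higher in combination than with enzalutamide. For that member, the treatment and the counting difference cannot be told apart.

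In combination against enzalutamide, which asks what the inhibitor adds, 13 of the 53 genes were higher and 25 lower, against 31.4% of all tested genes higher and 30.4% lower. The shares were 24.5% and 47.2%, with a median log2 fold change of -0.70, against -0.02 over all genes. The 301 genes raised by OC2 without the knockdown ratio again leaned the same way, with 19.9% higher and 41.2% lower. This comparison shares the enzalutamide libraries, and so the counting difference, with the one above, and the combination arm was given the inhibitor. Restricted to genes with at least 10 counts in every library, 39 of the 53 were tested, of which 11 were higher and 16 lower. Without the library that stood apart, 19 were higher and 22 lower. The shares of all genes called in these 2 fits are not given, so no lean is read from them. UGT2B15 stood at 596, 567 and 590.4 CPM in combination, against 176, 107 and 97.2 CPM with enzalutamide (log2 fold change 2.21, SE 0.20, adjusted p = 5.58e-06). Enzalutamide did not pass the test against vehicle for UGT2B15 (log2 fold change -0.16, SE 0.19, adjusted p = 0.451), and without the library that stood apart it was lower than vehicle (log2 fold change -0.48, adjusted p = 0.000347). IER5L stood at 22.03, 40.6 and 23.5 CPM in combination, against 2.35, 1.495 and 1.63 CPM with enzalutamide (log2 fold change 3.97, SE 0.26, adjusted p = 6.24e-07). IRF2BP1 (1.19), HOXC10 (1.04) and C1orf56 (1.0) were also higher in log2 fold change, with adjusted p of 9.95e-07, 0.0052 and 0.0111. On the lower side, ALDH1L2 stood at 0.997, 1.102 and 1.04 CPM in combination, against 21.2, 40.2 and 43.6 CPM with enzalutamide (log2 fold change -5.05, SE 0.30, adjusted p = 2.31e-07). ALDH1L2 in combination was thus at the vehicle level. UGT8 stood at 0.635, 0.689 and 0.908 CPM in combination, against 7.22, 23.7 and 21.2 CPM with enzalutamide (log2 fold change -4.54, SE 0.45, adjusted p = 1.18e-05). ASPH stood at 53.9, 65.9 and 56.9 CPM in combination, against 148, 349 and 334 CPM with enzalutamide (log2 fold change -2.23, SE 0.27, adjusted p = 4.59e-05). CDK18 (-2.57), TPBG (-2.27) and FRAS1 (-2.04) were lower too, with adjusted p of 3.55e-06, 2.93e-04 and 2.66e-05.

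**Figure D5:**
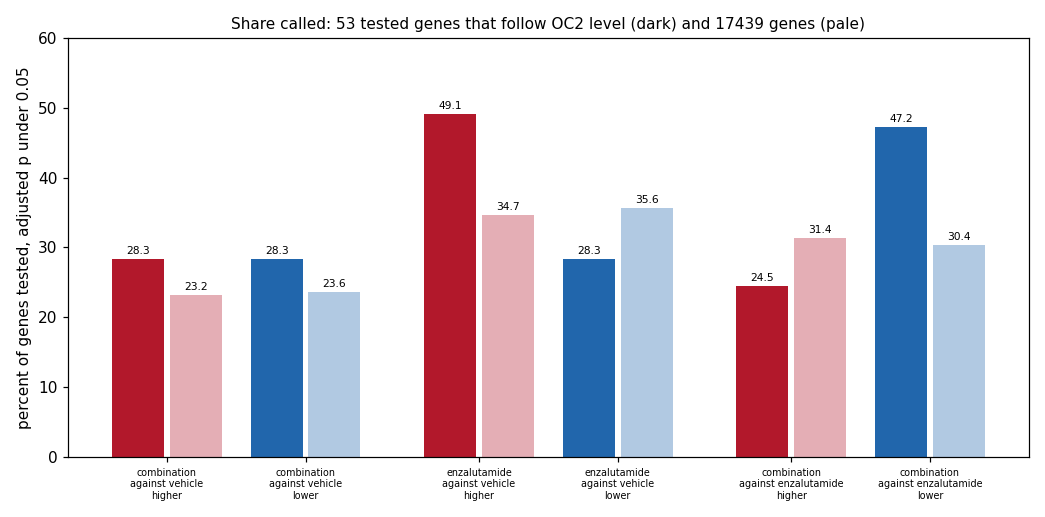
Percent of genes called higher (red) or lower (blue) in each drug comparison, for the 53 tested genes that follow OC2 (dark) and for all 17439 tested genes (pale). In combination against vehicle the dark and pale bars lie close (28.3% against 23.2% higher, 28.3% against 23.6% lower), and in the comparisons with the enzalutamide libraries they lie further apart (49.1% against 34.7% higher in enzalutamide against vehicle).

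Over the 3 comparisons, NPTXR, IRX3 and IRX5 were higher in combination than in enzalutamide and in each than in vehicle, and TRIB3, SFN, NPNT and MEIS1 were lower in combination than in enzalutamide and in each than in vehicle. For SFN and MEIS1 the step between combination and enzalutamide was lost when single libraries were left out, with adjusted p up to 0.106 for SFN and 0.138 for MEIS1. The SFN call in enzalutamide against vehicle was also lost without vehicle replicate 2 (adjusted p = 0.121) and with upper-quartile scaling (0.0576). ASPH, ANP32E, UGT8 and CDK18 were higher with enzalutamide and lower in combination, each against vehicle. UGT2B15 alone was higher in combination than in both other arms with no call between those. Without the enzalutamide library that stood apart, it was called lower with enzalutamide than with vehicle (adjusted p = 0.000347). Both comparisons with the enzalutamide libraries also carry the counting difference. The comparisons share arms, so these patterns are not independent.

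Of the 9 fixed gene and marker lists only UGT2B15 and TRIB3 are members. The list of 10 androgen-repressed genes that holds UGT2B15 had 8 higher and 2 lower in combination against vehicle, against 23.2% higher and 23.6% lower of all tested genes, with a median log2 fold change of 1.91, against 0.01 over all genes. In enzalutamide against vehicle it had 7 higher and 2 lower, against 34.7% and 35.6% of all tested genes, with a median of 1.14. UGT2B15 was not called there. The list of 15 amino acid and ATF4 response genes that holds TRIB3 had 1 higher and 13 lower in combination against vehicle, with a median of -0.82. The shares of all genes there were 23.2% and 23.6%. In enzalutamide against vehicle the ATF4 list had 6 higher and 2 lower, against 34.7% higher and 35.6% lower of all tested genes, while TRIB3 fell (log2 fold change -0.60, SE 0.08, adjusted p = 5.72e-05). In combination against vehicle, where 23.2% of all tested genes were higher and 23.6% lower, the 22 androgen-activated genes had 1 higher and 21 lower, and all 20 cell cycle genes were lower. None of the genes in these last lists follows OC2 by the rule used here.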

How the data were processed

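The series holds 23 RNA-seq libraries in 9 groups. Per the submitters' processing notes, FastQC 0.9.0 and Bowtie2 were used with hg38. Counter, annotation and strand setting were not given in the sources used here. Whole-number read counts were what the authors deposited for LAPC4 and for the enzalutamide columns. The authors deposited estimated counts for the LNCaP groups, combination and vehicle. No column of another sample was used (0). Members were found from CPM of the counts as deposited, with no rounding. The members, roles and gene lists were chosen with earlier results of these data known.

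For the drug arms, estimated counts were rounded to whole numbers and 321 duplicated symbols summed. The 3 arms were fitted together with edgeR 4.0.16 in R 4.3.3 (filterByExpr, TMM, glmQLFit, glmQLFTest, Benjamini-Hochberg over 17439 genes), which was tested on simulated counts. Enzalutamide columns carry no number tying them to a sample and served as group members. DESeq2 1.42.0, other scalings, filters and left-out libraries were tried. Gene positions are from GENCODE on hg38. Promoters are from RefSeq GRCh38.p14.

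Named genes were the 10 members highest in CPM, the 8 with the largest OC2 and the 8 with the largest knockdown ratios, up to 6 rises and 6 falls per drug comparison among members at 1 CPM or more in the higher arm, members next to the limits and members in the lists. VCY is named by it in 2 drug comparisons, and its values are left out because it is Y-linked. KLK3, FKBP5 and TMPRSS2 were checks, and other genes are said to be additions.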

Additional observations from a re-analysis of the deposited data

Results flagged for a closer look

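The genes were chosen for a higher level with OC2 overexpression in LNCaP. In LAPC4, 21 with an approved symbol had every OC2 library below every vector library. With members lacking a symbol they were 22 of 57, against 30.1% of the 11339 genes. Of the 21, 7 had a ratio of OC2-overexpressing to vector cells of 0.5 or less. Over the 57 members it was 8, against 3.16% of the 11339. The rule took out genes with a high LAPC4 ratio, which raises the share below, so no excess is read from these counts. The ratio of the 7 in LAPC4 was 0.305 for BANK1, 0.444 for HCN3, 0.348 for SP8, 0.368 for SLITRK5, 0.352 for SNAP91, 0.397 for ZNF117 and 0.425 for FOXN4. In the other 14 the ratio was 0.521 for TFAP2A, 0.551 for TMEM178B, 0.601 for NPNT, 0.653 for IRX3, 0.677 for PRRT4, 0.698 for C1orf56, 0.706 for SHISA8, 0.709 for ARHGEF6, 0.722 for AMOTL1, 0.768 for NPTXR, 0.778 for TGFB3, 0.78 for IRX5, 0.798 for MAN1A1 and 0.863 for EMX1. Of these, PRRT4, ARHGEF6 and EMX1 averaged under 1 CPM in both LAPC4 groups. BANK1, a scaffold protein of B cell receptor signalling, stood at 0.2298, 0.4801 and 0.434 CPM with OC2 in LAPC4, against 2.69, 2.52 and 1.95 CPM with vector. In LNCaP it stood at 27.2 and 28.5 CPM with OC2, against 9.78 and 10.8 CPM in control. HCN3, a cation channel, stood at 12.1, 11.6 and 13.4 CPM with OC2 in LAPC4, against 36.98, 32.7 and 15.7 CPM with vector, where vector replicate 3 lay closest to the OC2 libraries. FOXN4, a forkhead factor, stood at 0.591, 0.7201 and 0.568 CPM with OC2 in LAPC4, against 2.62, 2.28 and 1.55 CPM with vector. The difference between the lines was not tested, because the LNCaP ratio chose the genes.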

How the results depend on the processing

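The number of members was 58 and ran from 55 to 69 when single libraries were left out. It was 41 with a pseudocount of 1 (40 shared), 65 with TMM-scaled totals (56 shared), 73 with an OC2 level limit of 1 CPM and 40 with a knockdown ratio of 2 or more, so membership near the limits depends on these settings. Leaving out single libraries gave 22 to 28 members called in combination against vehicle (10 to 14 higher, 12 to 15 lower), 36 to 40 in enzalutamide against vehicle (23 to 26 higher, 12 to 17 lower) and 32 to 41 in combination against enzalutamide (12 to 19 higher, 19 to 24 lower). Among genes with at least 10 counts in every library, a filter added after seeing the data, 16 members were lower in combination against enzalutamide in place of 25, with fewer members tested. All other counts stayed within 1.5 times under DESeq2, fits of 2 arms, upper-quartile scaling, no filter, a 1.5-fold minimum and left-out duplicates.

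Same-numbered combination and vehicle libraries correlated in their deviations at 0.0602, 0.135 and 0.074. Differently numbered ones ran from -0.111 to 0.0666. These weak values do not decide whether the numbers pair the libraries, and the main fit used no replicate block. With a replicate block, 31 members were called (16 higher, 15 lower), GDF1 stood at 0.19 and MAN1A1 at -0.11 on the log2 scale.

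Of the values of named genes under other settings, 1168 kept direction and side of the threshold, 58 lost the call, 11 gained one and 20 reversed. The log2 fold changes that reversed did so mostly when single libraries were left out. The range over left-out libraries in combination against vehicle was -0.16 to 0.07 for ALDH1L2 (0.0111 with upper-quartile scaling), -1.58 to 8.88 for GDF1, the highest without vehicle replicate 1, and -0.68 to 0.28 for MAN1A1. In enzalutamide against vehicle it was -10.3 to 0 for GDF1, at 0 without vehicle replicate 1, -0.24 to 0.0065 for GUCY1A2 (0.0458 with upper-quartile scaling) and -0.19 to 0.77 for TMEM178B, the lowest without the enzalutamide library that stood apart. UGT2B15 there stood at 0.0091 with upper-quartile scaling. In combination against enzalutamide it was -0.60 to 0.40 for PLA1A and -0.20 to 0.55 for ZNF117, the highest of both without the library that stood apart, and ZNF117 stood at -0.11 with upper-quartile scaling and -0.016 among genes with at least 10 counts in every library. Apart from GDF1 in enzalutamide against vehicle, none of these genes was called in the comparison concerned. The cause was not tested. Depth limits members under 1 CPM, which rest on few counts.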
